A study of Mus musculus with 6 samples.

Results

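The genes described here carry the nitric oxide, natriuretic peptide and cGMP signals. They are the NO synthases Nos1 and Nos3, the subunits of soluble guanylyl cyclase Gucy1a1 and Gucy1b1, the natriuretic peptide receptors Npr1, Npr2 and Npr3, the cGMP kinase Prkg1, its substrate Mrvi1 and the phosphodiesterase Pde5a. All 10 were found by symbol among the 24964 gene symbols of the deposited table. They were chosen by pathway with the FPKM differences of this same comparison known, so their levels and differences are given as a description and no test is drawn from them. RNA was sequenced from mouse uterine tissue around the implantation sites at gestation day 13, with 3 control libraries and 3 labelled as lacking PGR, the progesterone receptor, in the myometrium (the uterine muscle layer). The sources used here do not give the strain, the age of the dams, the promoter that drives the deletion or the alleles of the controls. Nor do they tie libraries to separate animals, and a p-value below therefore measures the spread between libraries alone, which may be technical. The values are FPKM, fragments scaled to gene length and library size, which allows levels of different genes to be compared per length.

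Nitric oxide made by the NO synthases activates soluble guanylyl cyclase, a dimer of an alpha and a beta subunit that makes cGMP. Natriuretic peptides reach the same messenger through Npr1 and Npr2, whose intracellular part is itself a guanylyl cyclase, whereas Npr3 has no cyclase part and clears the peptides from the outside of the cell. In smooth muscle cGMP activates the kinase encoded by Prkg1, which phosphorylates the product of Mrvi1 (also called IRAG) at the inositol trisphosphate receptor and so lowers calcium release, and Pde5a breaks cGMP down. The pathway is best known for relaxing smooth muscle, that of the vessel wall and of the uterus included.

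Promoter sequences are shown for the members that lay higher in every labelled-deficient library, Npr3 and Mrvi1, and for Nppa, a natriuretic ligand that fell. Each is the 250 bases before the gene's start, 5' to 3' on the gene's own strand, from RefSeq on GRCm38.p6, and 9 of the 10 members had an entry. Capitals mark TGTTCT or its reverse complement AGAACA, the half-site bound by progesterone and glucocorticoid receptors.
Npr3, chr15:11907372-11907621, minus strand: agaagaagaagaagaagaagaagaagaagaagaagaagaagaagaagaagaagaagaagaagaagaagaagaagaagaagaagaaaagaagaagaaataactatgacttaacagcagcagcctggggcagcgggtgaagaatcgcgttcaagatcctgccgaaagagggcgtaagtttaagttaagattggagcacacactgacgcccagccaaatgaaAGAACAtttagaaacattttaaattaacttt
Mrvi1, first of 2 starts, chr7:110982462-110982711, minus strand: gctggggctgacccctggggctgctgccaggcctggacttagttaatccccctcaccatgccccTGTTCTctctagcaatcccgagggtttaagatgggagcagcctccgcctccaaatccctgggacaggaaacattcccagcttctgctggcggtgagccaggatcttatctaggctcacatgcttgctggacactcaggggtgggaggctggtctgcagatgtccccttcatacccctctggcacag
Nppa, chr4:148000472-148000721, plus strand: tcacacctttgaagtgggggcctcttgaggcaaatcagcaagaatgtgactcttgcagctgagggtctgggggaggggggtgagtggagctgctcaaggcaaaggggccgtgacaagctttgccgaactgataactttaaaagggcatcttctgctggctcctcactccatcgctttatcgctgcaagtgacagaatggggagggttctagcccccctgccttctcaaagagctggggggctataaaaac
The half-site lay at bases -31 to -26 of Npr3 and -186 to -181 of Mrvi1, counted from the start, and at -189 to -184 in Gucy1b1. It was in none of the windows of Nos1, Gucy1a1, Npr1, Npr2, Prkg1 and Pde5a, nor in the second window of Mrvi1. Of 32851 promoter windows of the same length, 16.1% hold this half-site on either strand. The palindromic core ACANNNTGT (5.84% of all windows) and the CArG box bound by serum response factor (1.47%) were in no window of the 9 members or of Nppa. The Npr3 window opens with a run of aag repeats, and 93 of its bases overlap an exon of Gm5144, a lncRNA gene on the opposite strand.

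Pgr itself measured 9.72, 8.33 and 12.1 FPKM across the controls, against 11.3, 12.4 and 7.73 FPKM across the labelled-deficient libraries (limma adjusted p = 0.91). The groups overlapped, and the level over the whole gene does not bear out the label. Nor can it refute the label, which names the myometrium only, while the tissue also held other cell types. The sources used here do not say which part of Pgr was deleted, and every direction below rests on the label. Library sums were between 357126 and 377091 FPKM. From low values of genes with a single transcript, the FPKM step of 1 read hardly differed between columns and implied a library size of between 36690000 and 36980000, which may be a common size used in the formula, so the depth of single libraries is unknown. Library 3 of either group stood apart from its fellows: control 3 correlated with controls 1 and 2 at 0.983 and 0.982 across genes against 0.992 between those, and deficient 3 with deficient 1 and 2 at 0.976 and 0.971 against 0.991. All 10 smooth muscle markers were present in every library and all 10 fell, with a summed level of 8113 to 9900 FPKM in the controls and 3288 to 3868 FPKM in the labelled-deficient libraries. The sum of 11 endothelial markers was 194.4 to 209.8 and 180.9 to 238.9 FPKM, highest in deficient 3, with 0 of 11 called. All 8 epithelial markers summed to 27190 to 38660 and 22840 to 37700 FPKM, ranges that overlapped and consisted mostly of Prap1. The same markers without Prap1, a set trimmed after its values were seen, summed to 590.0 to 657.5 and 758.9 to 966.0 FPKM, with 2 of 6 tested higher. Mast cell markers summed to 28.8 to 35.5 and 3.00 to 5.31 FPKM, and of 7 trophoblast markers Gcm1 was listed at 0 in every library and the sum was at most 2.11 FPKM. In bulk tissue, fewer cells of a type and less RNA per cell cannot be told apart.

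Npr3, the clearance receptor, had the largest difference among the members. It measured 0.314, 0.245 and 0.344 FPKM across the controls, against 2.18, 1.75 and 1.92 FPKM across the labelled-deficient libraries. Every labelled-deficient library lay above every control. The means were 0.301 ± 0.051 and 1.95 ± 0.22 FPKM (SD, n = 3 each), 6.48 times the control level. On the log2(FPKM + 1) scale, labelled deficient minus control, this is 1.18 (SE 0.09), a scale that understates low genes. With a pseudocount of 0.1 the difference was 2.36. On the summed exon length of its model, 9389 bases, the controls correspond to about 85 to 119 reads and the labelled-deficient libraries to about 605 to 754, so the low control values are not at the counting floor, which 3 reads put at 0.00868 FPKM. Npr3 reached the minimum mean of 1 FPKM (1.13 over the 6 libraries) only through the group where it was high. Npr3 spans chromosome 15 from 11839896 to 11907287 on the minus strand (GRCm38). Gm5144, which shares 321 bases (3.42% of the exon bases of Npr3) on the opposite strand, was between 0 and 0.146 FPKM, below Npr3 in every library. Left and right of Npr3, the nearest tested protein-coding genes Tars and Sub1 differed by -0.02 and 0.05 on the log2 scale (limma adjusted p = 0.94 and 0.74). These neighbours were chosen after the values of Npr3 were seen. The smooth muscle and mast cell sums were lower in the same libraries as the high Npr3 values, the full epithelial sum overlapped and that without Prap1 was higher, and their part in the result was not tested.

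The guanylyl cyclase receptors were more abundant than Npr3 and differed less. Npr1 spans chromosome 3 from 90450591 to 90465866 (minus strand) and Npr2 chromosome 4 from 43631935 to 43651244 (plus strand). Npr1, the receptor of the atrial and B-type peptides, measured 10.4, 10.2 and 11.5 FPKM across the controls, against 10.9, 11.7 and 11.2 FPKM across the labelled-deficient libraries. Its groups overlapped, with a difference of 0.07 on the log2 scale (SE 0.07). Npr2, the receptor of the C-type peptide, measured 13.8, 11.2 and 13.4 FPKM across the controls, against 16.4, 16.5 and 13.2 FPKM across the labelled-deficient libraries. Deficient 1 and 2 lay above every control and deficient 3 within them, and the difference was 0.25 (SE 0.11), or 0.37 without the third library of both groups. Npr3 made up 1.26% ± 0.12 of the summed FPKM of the 3 receptors in the controls and 6.85% ± 0.87 in the labelled-deficient libraries (SD, n = 3 each). So it stayed the least abundant of the 3 in every library, while the summed level of the receptors was 21.7 to 25.2 FPKM in the controls and 26.3 to 30.0 FPKM in the labelled-deficient libraries.

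The NO synthases were low and overlapped between the groups. Both lie on the plus strand of chromosome 5, Nos3 from 24364810 to 24384474 and Nos1 from 117781032 to 117958840. Nos3, the endothelial enzyme, measured 4.39, 4.23 and 3.40 FPKM across the controls, against 3.70, 3.56 and 4.86 FPKM across the labelled-deficient libraries. Its difference was 0.01 (SE 0.13), its lowest value was in control 3 and its highest in deficient 3, the library that also had the highest endothelial sum. Without the third library of both groups it was -0.20, and its sign was negative in 6 of 17 alternatives, 2 of the 3 other scalings included. Nos3 shares 294 exon bases (7.12% of its own) with Atg9b and 1040 (25.2%) with the antisense gene Gm15587, for which no values were used here, both on the opposite strand. Atg9b was at 54.1 to 67.5 FPKM in the controls and 75.8 to 85.9 FPKM in the labelled-deficient libraries, above Nos3 in every library. Without the strand setting, which the sources used here do not name, reads from the shared bases cannot be assigned to one gene. Nos1, the neuronal enzyme, was between 0.022 and 0.079 FPKM in the controls and between 0.062 and 0.101 FPKM in the labelled-deficient libraries, about 9 to 41 reads. It did not reach a mean of 1 FPKM and was not tested, and of 9 nerve and glia markers only Uchl1 was tested (6.68 ± 1.43 and 2.27 ± 0.05 FPKM, SD, n = 3 each, called lower). Nos2, the inducible enzyme, not a member, was at 0.360 to 0.525 and 0.411 to 0.706 FPKM.

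Gucy1a1 and Gucy1b1, the subunits of the NO receptor, lie next to each other on chromosome 3, 17737 bases apart, and were at like levels. Gucy1b1 spans 82032006 to 82074689 and Gucy1a1 82092427 to 82145789, both on the minus strand. Gucy1a1 measured 4.14, 5.67 and 4.71 FPKM across the controls, against 4.98, 4.86 and 6.10 FPKM across the labelled-deficient libraries. Gucy1b1 measured 4.82, 5.37 and 4.76 FPKM across the controls, against 4.27, 4.17 and 6.35 FPKM across the labelled-deficient libraries. Deficient 3 was highest for both, and both sets of groups overlapped. Their differences were 0.12 (SE 0.12) and -0.03 (SE 0.15), the latter positive after rescaling to a sum of 1000000 (0.0043) and -0.22 without the third library of both groups. The ratio of Gucy1a1 to Gucy1b1 was 0.97 ± 0.10 in the controls and 1.10 ± 0.12 in the labelled-deficient libraries (SD, n = 3 each). Gucy1a2, the alternative alpha subunit, was at 0.107 to 0.241 FPKM over the 6 libraries, and Gucy1b2 at no more than 0.030 FPKM, so the dimer partners detected at 4 FPKM or more were Gucy1a1 and Gucy1b1.

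Mrvi1 was the most abundant member in every library and the other member whose groups did not overlap. It measured 22.4, 19.2 and 19.7 FPKM across the controls, against 27.9, 34.8 and 27.9 FPKM across the labelled-deficient libraries. Every labelled-deficient library lay above every control, with deficient 2 highest. The means were 20.4 ± 1.7 and 30.2 ± 4.0 FPKM (SD, n = 3 each), 1.48 times the control level and 0.54 on the log2 scale (SE 0.11). The difference lay between 0.43 and 0.60 in 17 alternatives. Its direction was opposite to that of the 10 smooth muscle markers in the same libraries, whose summed level is given above. The full epithelial sum overlapped between the groups and that without Prap1 was higher in the same libraries, and the part of these markers in the result was not tested. Mrvi1 spans chromosome 7 from 110868266 to 110982461 on the minus strand, and Prkg1 chromosome 19 from 30564489 to 31765033, also on the minus strand (GRCm38). Prkg1, the kinase, measured 1.31, 1.31 and 1.48 FPKM across the controls, against 1.45, 2.00 and 1.49 FPKM across the labelled-deficient libraries. Its groups overlapped through deficient 1, and the difference was 0.15 (SE 0.10), or 0.06 without deficient 2. Prkg2, the other cGMP kinase, was at 0.842 to 2.25 FPKM over the 6 libraries, with a difference of -0.11 (SE 0.25, limma adjusted p = 0.84). The exons of Mrvi1 share 108 bases with Gm16336 on the opposite strand, which was at no more than 0.072 FPKM.

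Pde5a, the cGMP-specific phosphodiesterase, measured 3.56, 3.36 and 3.55 FPKM across the controls, against 3.09, 3.51 and 4.03 FPKM across the labelled-deficient libraries. Its gene spans chromosome 3 from 122728947 to 122859374 on the plus strand. The controls lay within the range of the labelled-deficient libraries. The difference was 0.01 (SE 0.09) and changed sign under median-of-ratios scaling (-0.043) and quantile normalization (-0.047).

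**Figure D1:**
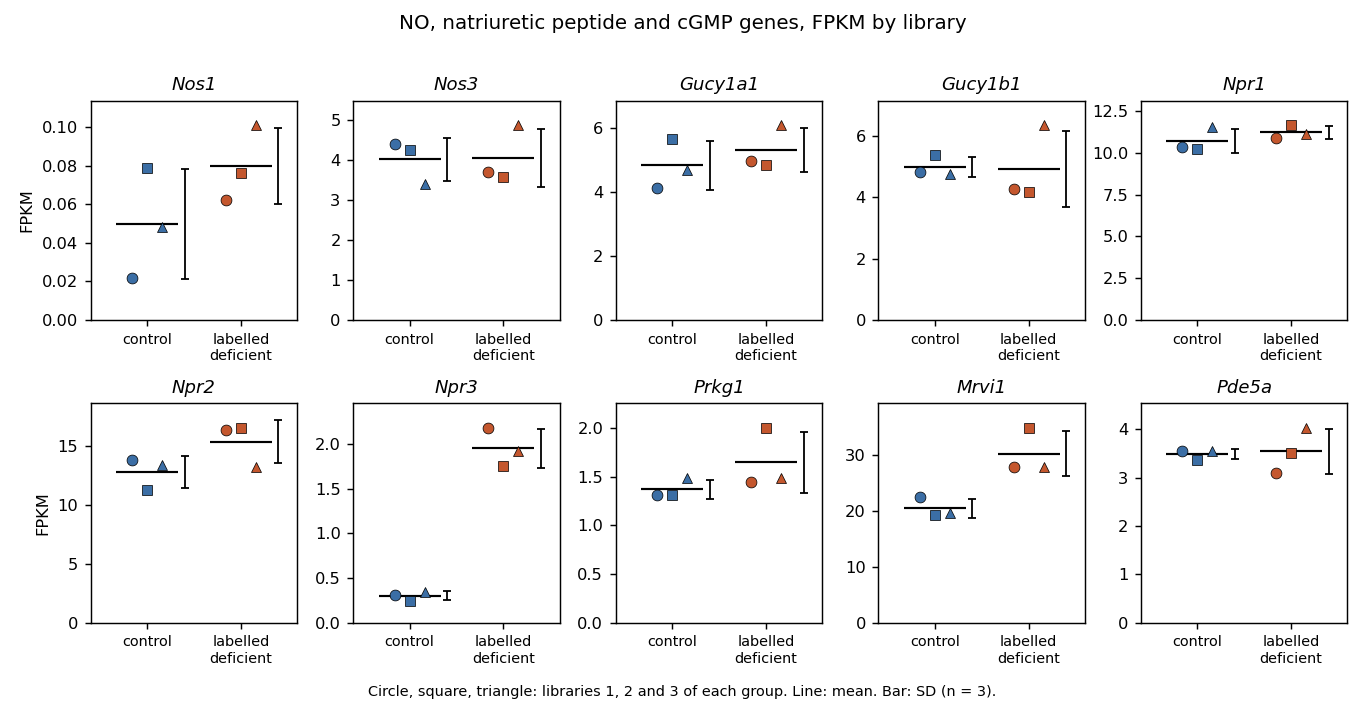
FPKM of the 10 members (vertical axes, from 0, 1 scale per gene) in 3 control libraries and 3 labelled deficient, with the mean and SD (n = 3) of each group. Npr3 (0.245 to 0.344 against 1.75 to 2.18 FPKM) and Mrvi1 (19.2 to 22.4 against 27.9 to 34.8 FPKM) are the members whose groups do not overlap.

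Of the 10 members, 9 had a mean of at least 1 FPKM, Npr3 only through the group where it was high. Over all 12500 genes tested, limma called 3.34% in either direction, 1.34% as higher and 1.99% as lower, and no call is given for the members. The groups did not overlap for 2 of the 9, Npr3 and Mrvi1, where 29.0% of all genes tested did not overlap, 20.8% with the labelled-deficient libraries higher and 8.16% with them lower. As the members were chosen with this comparison known, the count of groups that do not overlap is a description and nothing is read from it. The median difference of the 9 was 0.12 on the log2 scale, beside 0.06 over all genes tested. Npr2 was above Npr1 within each of the 6 libraries, in both groups. Per length the mean levels ran, in both groups, from Mrvi1 through Npr2, Npr1 and a set of Gucy1a1, Gucy1b1, Nos3 and Pde5a between 3.49 and 5.32 FPKM. Within that set Gucy1a1 and Gucy1b1 changed places between the groups and did not differ beyond their spread. Prkg1 came next in the controls, ahead of Npr3 and Nos1, but in the labelled-deficient libraries Npr3 (1.95 ± 0.22 FPKM) was above Prkg1 (1.65 ± 0.31 FPKM, SD, n = 3 each). Deficient 3 had the highest value of 5 members (Nos1, Nos3, Gucy1a1, Gucy1b1 and Pde5a) and deficient 2 of 4 (Npr1, Npr2, Prkg1 and Mrvi1). Over the 6 libraries, which share 2 groups, log2 values of Npr3 and Mrvi1 correlated at r = 0.879, those of Nos3 and Gucy1b1 at 0.824 and those of Nos3 and Npr3 at -0.002. The genes whose log2 values were most like those of Npr3 over the 6 libraries were Psmd3 (Pearson r = 0.997), Ssh3 (0.996) and Mbd1 (0.995), and for Gucy1b1, the tested member with the lowest difference, L1cam (0.988), Gm13199 (0.987) and Grk2 (0.984). With 6 points and 12500 genes, values this high are a description only.

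**Figure D2:**
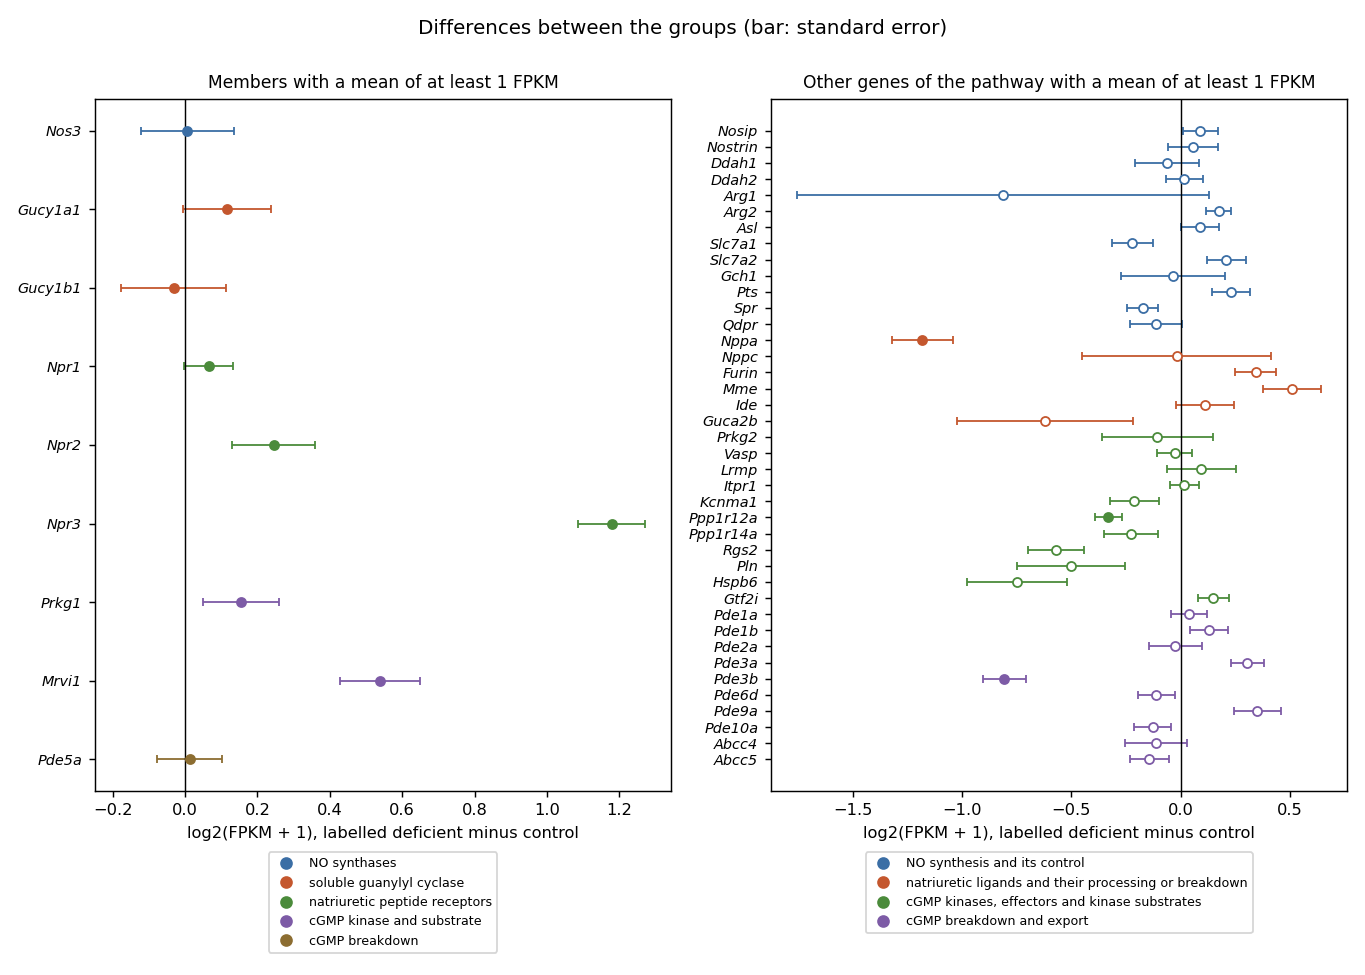
Difference in log2(FPKM + 1), labelled deficient minus control (horizontal axes, each on its own scale), with its standard error from limma, for the 9 members with a mean of at least 1 FPKM (left) and the 40 other pathway genes tested (right), coloured by role. On the right, filled points are the 3 genes that passed, Nppa, Pde3b and Ppp1r12a, all lower, and on the left the filling carries no test.

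Like the members, the other genes of the pathway were chosen with earlier results of these data known, so their counts are a description. They were taken from a list of 68 genes. Of these, 40 were tested, and limma called 0 higher and 3 lower (7.5% of those tested, beside 3.34% of all genes). At an unadjusted limma p under 0.05 there were 12 of the 40, beside 2682 of all 12500 genes tested. The median difference of the 40 was -0.03 on the log2 scale. The 3 that fell were a natriuretic peptide, a phosphodiesterase and a phosphatase subunit. Of these, the peptide, Nppa, reached the minimum mean of 1 FPKM only through the controls.

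Nppa, the atrial natriuretic peptide and a ligand of both Npr1 and Npr3, measured 2.30, 3.00 and 1.77 FPKM across the controls, against 0.474, 0.444 and 0.472 FPKM across the labelled-deficient libraries. Every labelled-deficient library lay below every control, and the control mean was 5.08 times theirs. The log2 difference was -1.18 (SE 0.14, limma adjusted p = 0.013), on about 56 to 96 reads per control library and 14 to 15 per labelled-deficient library. Nppa reached the minimum mean of 1 FPKM (1.41 over the 6 libraries) only through the controls, so its call is given as a description. The call was lost without control 1 (adjusted p = 0.066) or deficient 1 (0.058). Nppb, the B-type peptide, also on chromosome 4, was at 0.277, 1.43 and 0.313 FPKM in the controls. In the labelled-deficient libraries it was listed at 0 in deficient 1 and 3 and was at 0.070 FPKM in deficient 2. It was too low to be tested, and the groups did not overlap. The sum of 6 decidual markers was 213.0, 416.6 and 137.1 FPKM in controls 1 to 3, in the same order as Nppa, and 41.3 to 80.95 FPKM in the labelled-deficient libraries. It consisted mostly of Prl8a2 and Cryab, and its order in the controls was that of Prl8a2 (154.7, 354.6 and 60.4 FPKM). Both were lower in every labelled-deficient library, Bmp2 and Wnt4 were higher, and Bmp8a and Ptgs2 overlapped. Of the 4 decidual markers tested, 0 were called. The smooth muscle and mast cell sums were also lower in the labelled-deficient libraries. The part of the decidual, muscle and mast cell markers in the values of Nppa and Nppb was not tested. Nppc, the C-type peptide and the ligand of Npr2, measured 1.95, 0.783 and 2.74 FPKM across the controls, against 3.23, 1.99 and 0.494 FPKM across the labelled-deficient libraries. Its spread within each group was wider than the difference of -0.02 (SE 0.43, limma adjusted p = 0.99). Corin, the protease that activates the atrial peptide, was at no more than 0.086 FPKM. Mme, neprilysin, which degrades natriuretic peptides, measured 9.80, 7.24 and 6.58 FPKM across the controls, against 11.8, 11.6 and 11.1 FPKM across the labelled-deficient libraries. It did not pass (0.51, SE 0.13, limma adjusted p = 0.10), although its groups did not overlap. Guca2b, uroguanylin, chosen after its values were seen, was the most abundant gene of the list. It measured 7335, 5861 and 8298 FPKM across the controls, against 3379, 3273 and 8871 FPKM across the labelled-deficient libraries. Deficient 3 lay above every control and deficient 1 and 2 below. Prap1, an abundant epithelial transcript, was at 26602 to 38000 FPKM in the controls and at 36945 FPKM in deficient 3, above deficient 1 (21874 FPKM) and deficient 2 (23305 FPKM), and its part in the result was not tested. Guca2b did not pass (-0.62, SE 0.40, limma adjusted p = 0.42), and it was called lower without deficient 3. Its receptor Gucy2c was at no more than 0.021 FPKM.

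Among the phosphodiesterases, Pde3b, a cGMP-inhibited enzyme that breaks down cAMP, measured 5.22, 5.30 and 6.32 FPKM across the controls, against 2.49, 2.74 and 3.10 FPKM across the labelled-deficient libraries. All labelled-deficient libraries lay below all controls, and Pde3b differed by -0.81 on the log2 scale (SE 0.10, adjusted p = 0.014 by limma). The call was lost without control 1 (adjusted p = 0.056), control 2 (0.056), deficient 1 (0.056) or deficient 2 (0.051). Its paralog Pde3a measured 2.08, 1.78 and 2.00 FPKM across the controls, against 2.78, 2.60 and 2.56 FPKM across the labelled-deficient libraries, a difference of 0.30 (SE 0.07, limma adjusted p = 0.089) that did not pass. The ratio of Pde3b to Pde3a was 2.88 ± 0.33 in the controls and 1.05 ± 0.16 in the labelled-deficient libraries (SD, n = 3 each). Of the 17 genes of cGMP breakdown and export, 10 were tested, 1 fell, 0 rose and 9 did not pass. Over all genes tested, 3.34% were called in either direction.

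Ppp1r12a, the targeting subunit of myosin phosphatase, a protein that cGMP kinase binds, was between 27.1 and 27.5 FPKM in the controls and between 20.6 and 22.8 FPKM in the labelled-deficient libraries. The groups did not overlap, and the log2 difference was -0.33 (SE 0.06, limma adjusted p = 0.044). This call was lost in 10 of 17 alternatives, after rescaling to a sum of 1000000 (adjusted p = 0.081) and in every fit with libraries left out (0.056 to 0.17) among them. Rgs2, a G protein regulator that cGMP kinase activates, measured 71.0, 56.0 and 58.6 FPKM across the controls, against 38.5, 37.9 and 47.6 FPKM across the labelled-deficient libraries, and did not pass (-0.57, SE 0.13, limma adjusted p = 0.074). Of the 17 kinases, effectors and substrates, 11 were tested, 1 fell, 0 rose and 10 did not pass, beside 3.34% of all genes called. Ppp1r12a and Rgs2 were lower in the same libraries as the smooth muscle markers, and the part of the muscle markers in their values was not tested.

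Of the 17 genes of NO synthesis and its control, 13 were tested, 0 were called by limma and 3 had an unadjusted p under 0.05. Over all 12500 genes tested, 3.34% were called and 2682 had such a p. The smallest p values were those of Arg2, an arginase that uses the substrate of the NO synthases (17.6 ± 0.6 and 19.9 ± 0.2 FPKM, limma adjusted p = 0.16), and Pts, an enzyme of the synthesis of their cofactor tetrahydrobiopterin (15.8 ± 1.2 and 18.7 ± 1.6 FPKM, limma adjusted p = 0.20), each SD with n = 3. Ass1, which regenerates arginine, was listed at 0 in every library, as were the globin genes Hbb-bs, Hbb-bt and Hba-a1. A value listed so cannot tell absent RNA from a gene that was not counted. None of the 7 other guanylyl cyclase genes reached a mean of 1 FPKM. Gucy2g, which had the highest mean of them over the 6 libraries though not over the controls, where Gucy1a2 was higher, was at 0.132 to 0.273 FPKM in the controls and 0.313 to 0.434 FPKM in the labelled-deficient libraries.

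**Figure D3:**
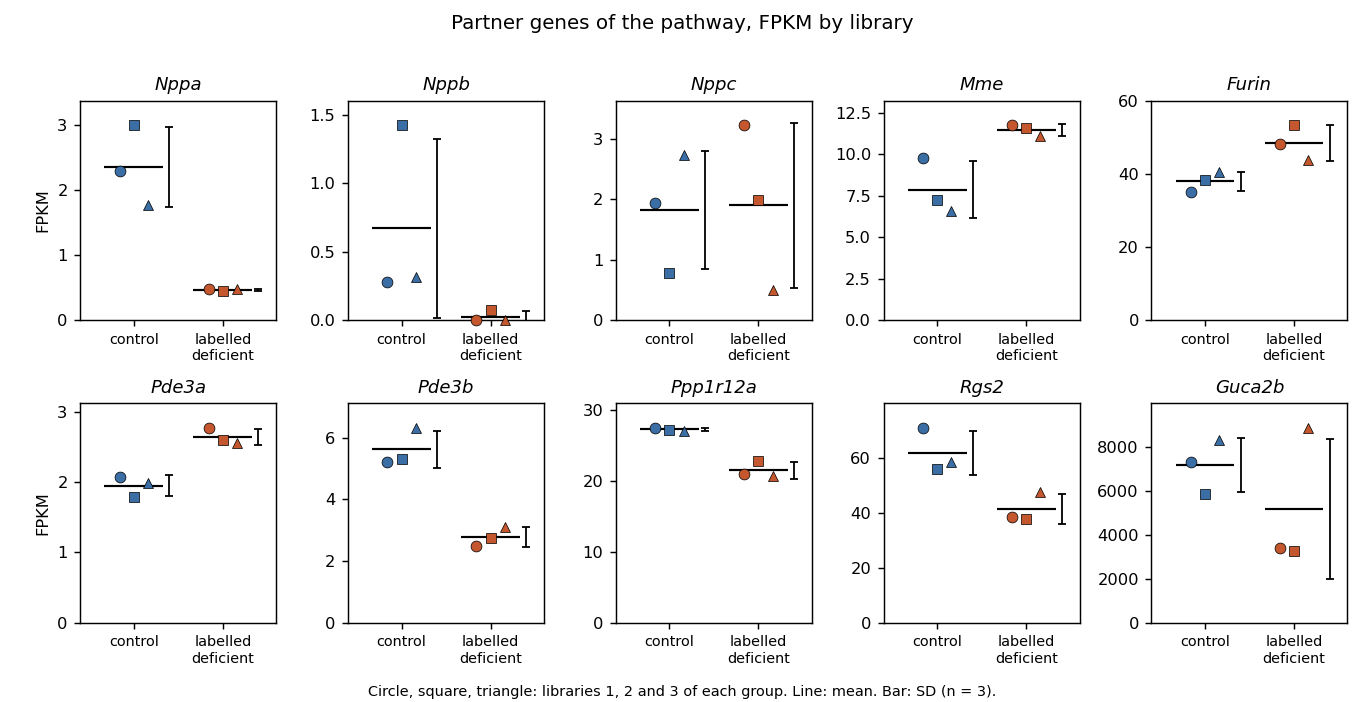
FPKM of 10 pathway genes that are not members (vertical axes, from 0, 1 scale per gene) in 3 control libraries and 3 labelled deficient, with the mean and SD (n = 3) of each group. Nppa, Nppb, Pde3b, Ppp1r12a and Rgs2 are lower in every labelled-deficient library, Mme, Furin and Pde3a higher, and Nppc and Guca2b overlap.

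**Figure D4:**
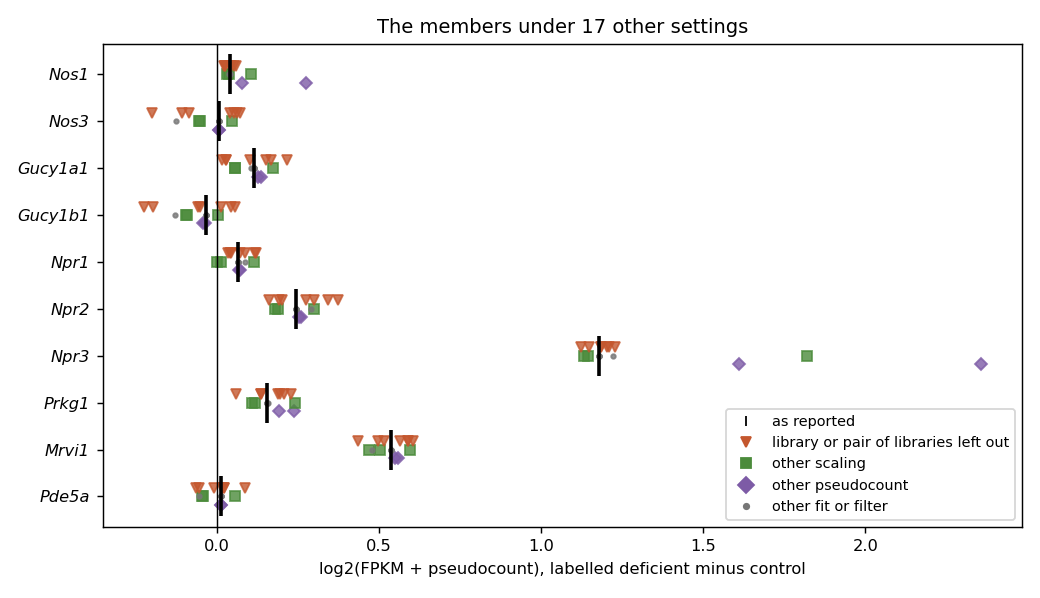
Difference of each member in log2(FPKM + pseudocount), labelled deficient minus control (horizontal axis), as reported (black bar) and under 17 other settings (coloured points). Npr3 lies between 1.12 and 2.36 and Mrvi1 between 0.43 and 0.60, while Nos3, Gucy1b1 and Pde5a have values on both sides of 0.

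Under 17 other settings, plotted by member, the sign of the difference was the same as reported for Nos1, Gucy1a1, Npr1, Npr2, Npr3, Prkg1 and Mrvi1. Npr3 ranged from 1.12 without deficient 1 to 2.36 with a pseudocount of 0.1. Nos3 and Pde5a changed sign in 6 settings each and Gucy1b1 in 4.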

How the data were processed

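The authors deposited FPKM values, 1 column per library, rounded to 3 decimals. STAR 2.7.0f, cutadapt 2.7, build mm10 and DESeq2 1.24.0 are named, without role or order, per the submitters' processing notes. Counting program, annotation and strand setting: not given in the sources used here. Column names matched the labels for all 6 libraries. Differences were fitted with limma 3.58.1 in R 4.3.3 (eBayes with trend, no covariate) on log2(FPKM + 1), as labelled deficient minus control, over the 12500 genes whose mean reached 1 FPKM. Benjamini-Hochberg adjustment ran over those genes, with a threshold of 0.05. The code was tested on simulated data. Because what 1 read is worth depends on gene lengths that the table does not hold, no count model was fitted, and read numbers are approximations from exon lengths of GENCODE M21 (GRCm38) and a library size of 36830000.

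The members and lists were chosen with earlier results of these data known. Named were all members, Pgr, pathway genes past the threshold, the partners Nos2, Nppa, Nppb, Nppc, Gucy1a2 and Prkg2, the 2 genes of smallest p in each role group, and the 3 genes most like the members with the highest and the lowest difference. Other names (Gucy1b2, Gucy2c, Gucy2g, Corin, Furin, Guca2b, Ass1 and genes that overlap or neighbour a member) were chosen after their values were seen. The remaining marker lists, of which decidua and the nerve marker Uchl1 also appear in the results, gave the summed levels below. Pericytes were at 138.4 to 140.2 (controls) and 133.2 to 146.4 FPKM (labelled deficient), and fibroblasts at 5805 to 6295 and 5188 to 5294. Of the 7 pericyte markers, limma called 2 lower (Cspg4 and Kcnj8), beside 1.99% of all genes tested, and 0 higher. Pdgfrb, Rgs5 and Higd1b were higher in every labelled-deficient library without a call, and Notch3 and Abcc9 overlapped. Decidua was at 137.1 to 416.6 and 41.3 to 80.95, and macrophages at 574.6 to 668.4 and 554.5 to 627.5. Nerve was at 6.52 to 9.34 and 3.10 to 3.99. Blood was at 2.91 to 6.08 and 12.6 to 24.8, with Hbb-bs, Hbb-bt and Hba-a1 listed at 0. The part of these lists in the results was not tested.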

Additional observations from a re-analysis of the deposited data

How the results depend on the processing

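The depth of single libraries is unknown, and 3 libraries a group limit the precision. Of 12500 genes, limma called 417, and 1770 with array weights, 143 with the replicate number as a block, and between 99 and 1274 with libraries left out, the lowest without control 1, followed by 104 without control 2, 130 without deficient 1 and 185 without deficient 2, and the highest without the third library of both groups. The share of calls that were higher was 40.3% as reported, 50.8% after rescaling to a sum of 1000000, 27.9% after quantile normalization and 23.9% with median-of-ratios scaling. Over all alternatives this share ran from 21.7% with the replicate block to 59.2% with array weights. Of the pathway list 3 genes were called, 1 with a minimum mean of 5 FPKM, where fewer were tested, 9 with array weights, 1 with the replicate block (Pde3b) and between 0 and 6 with libraries left out. That count was 0 without deficient 1, 1 without control 1 (Mme, higher), control 2 or deficient 2 (Nppa in both), and 6 without the third library of both groups. Under the block the adjusted p was 0.056 for Nppa (0.0026 to 0.066 over its alternatives) and 0.13 for Ppp1r12a (0.012 to 0.17). The labels give both groups the numbers 1 to 3, and deviations of same-numbered libraries correlated at -0.136, 0.0789 and -0.132. These values give no sign that the numbers pair the samples, but with 3 libraries a group they cannot exclude it. The median difference of the members was 0.12 and lay between 0.056 and 0.18 under the alternatives. For all other changes the cause was not tested.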
